A study of Homo sapiens with 10 samples.

Results

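Oligosaccharyltransferase is the enzyme complex of the endoplasmic reticulum that attaches sugar chains to proteins. The messages of 9 of its subunits, STT3A, STT3B, DDOST, RPN1, RPN2, DAD1, OSTC, TUSC3 and MAGT1, were followed in protrusions and bodies of MDA-MB-231 cells. They were taken by gene symbol from a table of 26134 genes. Each of the 9 symbols had 1 identifier there, and all 9 reached the filter used for testing, 5 or more of the 10 libraries at a value of 1 or higher. The set was named after an earlier result on STT3B, and STT3B was to be set against STT3A. Which subunits differ between the compartments is therefore given as a description with no p-value, and which of them the fit to all genes called is only counted.

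There were 5 protrusion libraries and 5 libraries of the corresponding cell bodies, in 2 groups. All came from MDA-MB-231, an established human line of triple-negative breast cancer with mesenchymal features, with no drug or genetic change named in the labels. Cells trapped singly by micro-hooks on a chip put out protrusions for 6 h. Fixation took 15 min on ice with 4% paraformaldehyde, and the compartments were cut apart by laser capture microdissection before amplification of polyadenylated RNA. The labels do not give the number of cells per library or say that libraries came from separate cultures, so p-values measure the spread between these libraries only, which may be technical. No unit is named for the levels. They are called scaled TPM here, inferred to be a transcript abundance corrected for gene length and multiplied by 1 factor per library. The numbers show the factor but not the correction for length, on which comparisons of level between different genes rest. These values are relative to the library, so less of a message in a protrusion and more of all others cannot be told apart.

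The read depth behind the values is unknown. The values of a library summed to between 737343 and 1103250 in protrusions and between 967421 and 1390250 in cell bodies. Genes at a value of 1 or more numbered 9124 to 10471 in protrusion libraries and 11035 to 11519 in cell body libraries, without overlap. The part of this in messages of low level was not tested. The mesenchymal markers VIM, CD44, CAV1, AXL and S100A4 were at 1 or more in all 10 libraries. VIM, for example, averaged 588 ± 119.8 scaled TPM in protrusions and 596 ± 68.8 in cell bodies, and CAV1 averaged 394 ± 59.1 in protrusions and 376 ± 87.9 in cell bodies (SD, n = 5 each). Of 6 luminal epithelial markers 5 had an entry, with sums of 2.43 to 7.27 in protrusions and 4.18 to 6.43 in cell bodies, and of 6 blood cell markers 3 had an entry, with no value above 0.872. The highest of the luminal means was that of EPCAM, at 2.80 in protrusions and 3.003 in cell bodies. GATA3 averaged 1.16 in protrusions and 0.794 in cell bodies, CDH1 0.0362 in protrusions and 1.13 in cell bodies, and PGR 0 in protrusions and 0.002 in cell bodies. RAB13, a message known from protrusions of other cells, averaged 247 ± 45.5 scaled TPM in protrusions and 40.3 ± 8.34 in cell bodies (SD, n = 5 each). The nuclear RNAs MALAT1 and NEAT1 together reached 0.45 to 28.0 scaled TPM in protrusions and 51.7 to 147 in cell bodies, with the highest protrusion value in replicate 2.

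In human cells the enzyme exists in 2 forms that share most of their subunits. STT3A and STT3B are alternative catalytic subunits that move a preassembled oligosaccharide from a dolichol lipid to asparagine residues of proteins. The STT3A form is docked to the protein translocon by OSTC and KRTCAP2 and acts while the chain is still entering the endoplasmic reticulum. The STT3B form carries MAGT1 or TUSC3, paralogous thioredoxin-like proteins, and acts on sites that the STT3A form skipped. RPN1, RPN2, DDOST, DAD1, OST4 and TMEM258 belong to both forms.

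Because the contrast rests on paralogues, it matters how far their reads could be confused. The coding sequences of STT3B and STT3A in GENCODE 29 (GRCh38), on chromosomes 3 and 11, were 65.2% identical over 2088 aligned positions. The longest run shared by the whole transcripts was 23 bases. It lay in the coding sequence, where it holds the codons of the tryptophan-tryptophan-aspartate-tyrosine-glycine signature of STT3 proteins. The stretch is shown with that run in capitals, 5′ to 3′ on the sense strand, as coding positions 1786 to 1856 of 2478 in STT3B and 1549 to 1619 of 2115 in STT3A.
STT3B: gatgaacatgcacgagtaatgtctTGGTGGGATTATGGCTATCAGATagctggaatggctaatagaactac
STT3A: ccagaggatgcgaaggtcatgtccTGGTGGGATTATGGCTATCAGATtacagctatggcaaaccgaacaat
On either side of the capitals the sequences diverge at many positions, so the paralogues have distinct sequence outside a very short run. MAGT1 and TUSC3 were 67.7% identical over 1040 aligned coding positions and shared no run longer than 16 bases. Exons of STT3B, MAGT1, TUSC3, RPN1, DAD1 and OSTC overlapped those of no other gene in GENCODE 29, and those of STT3A did so over 1.08% of their bases. The only pseudogene entries named after these subunits were 4 copies of OSTC, with no value above 0.415 scaled TPM.

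STT3B was the catalytic subunit whose message was low in protrusions. It measured 5.98, 8.95, 3.92, 4.68 and 8.92 scaled TPM in protrusion replicates 1 to 5, and 22.7, 34.1, 22.8, 20.8 and 28.7 in cell body replicates 1 to 5. Every protrusion library lay below every cell body library. The means were 6.49 ± 2.35 in protrusions and 25.8 ± 5.48 in cell bodies (SD, n = 5 each), so the cell body mean was 3.98 times the protrusion mean. The limma fit on log2(value + 1) gave a log2 change, as protrusion minus cell body, of -1.88 ± 0.24 (SE). Of the 10894 genes tested, 8.31% had a lower change than STT3B, and among protein-coding genes 5.02% did.

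STT3A, the other catalytic subunit, was not low in protrusions. Its levels were 6.82, 12.4, 10.6, 8.95 and 10.4 scaled TPM in protrusion replicates 1 to 5, and 5.60, 5.77, 9.96, 8.99 and 8.80 in cell body replicates 1 to 5. The groups overlapped, with protrusions the higher in 4 of 5 replicate numbers. The mean was 9.84 ± 2.09 in protrusions and 7.82 ± 2.00 in cell bodies (SD, n = 5 each), with a log2 change of 0.31 ± 0.22 (SE).

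**Figure D1:**
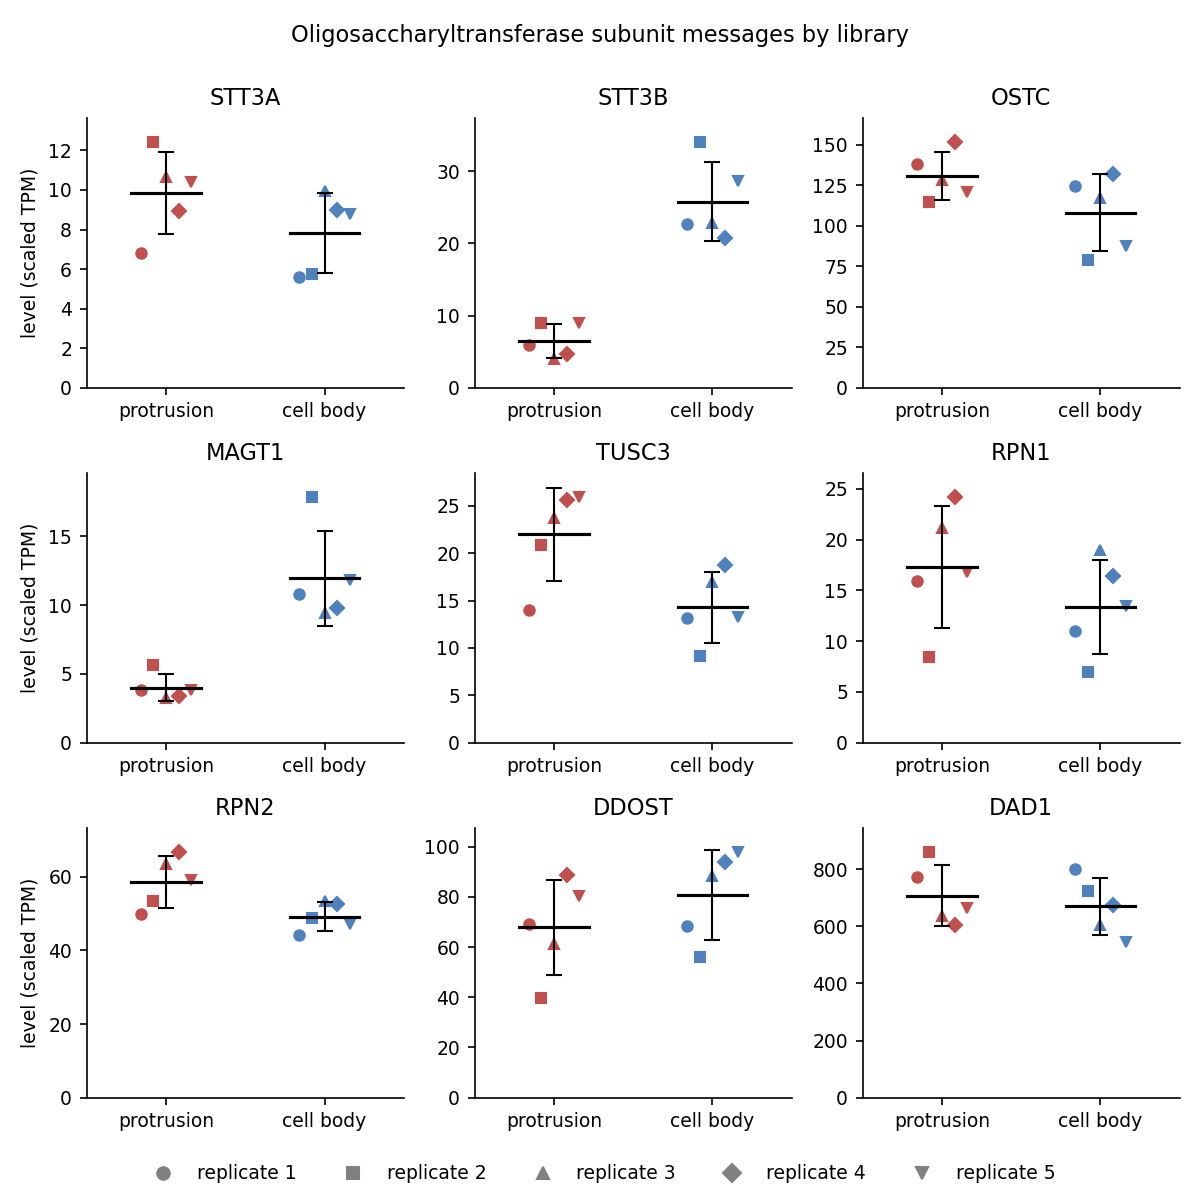
Level of each of the 9 subunit messages (vertical axes, scaled TPM, linear and starting at 0) in 5 protrusion libraries (red, left) and 5 cell body libraries (blue, right); symbols give the replicate number, the thick line the mean and the bars the SD. The groups are apart for STT3B and MAGT1, which are lower in protrusions, and overlap for the other 7.

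Within a library the ratio of the catalytic messages does not depend on how libraries were scaled to each other. STT3B stood to STT3A at 0.876, 0.720, 0.368, 0.524 and 0.858 in protrusion replicates 1 to 5, and at 4.06, 5.90, 2.29, 2.31 and 3.26 in cell body replicates 1 to 5. STT3A was thus the more abundant of these messages in each protrusion library and STT3B in each cell body library. The difference in the log2 ratio was -2.39 ± 0.35 (SE, n = 5 each), and within replicate numbers it ran from -3.03 to -1.93. STT3B made up 39.2 ± 8.46% of the summed STT3A and STT3B level in protrusions and 76.3 ± 6.85% in cell bodies (SD, n = 5 each). The sum itself was 16.3 ± 3.79 scaled TPM in protrusions and 33.6 ± 4.92 in cell bodies. In the deposited scaling it did not overlap, at 12.8 to 21.4 in protrusions and 28.3 to 39.8 in cell bodies. Unlike the ratio, the sum depends on how libraries were scaled to each other, and it was not computed under other scalings.

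MAGT1, an oxidoreductase subunit of the STT3B form, had a pattern like that of STT3B. It measured 3.85, 5.65, 3.25, 3.37 and 3.83 scaled TPM in protrusion replicates 1 to 5, and 10.8, 17.9, 9.43, 9.79 and 11.9 in cell body replicates 1 to 5. All protrusion libraries lay below all cell body libraries. The means were 3.99 ± 0.97 in protrusions and 11.9 ± 3.44 in cell bodies (SD, n = 5 each), with a log2 change of -1.36 ± 0.22 (SE). The libraries numbered 2 were the highest of their groups, and without both of them the log2 change was -1.32.

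TUSC3, which can take the place of MAGT1 in the STT3B form, differed the other way. It measured 14.0, 20.9, 23.7, 25.6 and 25.9 scaled TPM in protrusion replicates 1 to 5, and 13.2, 9.19, 16.9, 18.8 and 13.3 in cell body replicates 1 to 5. Protrusions were the higher at all 5 replicate numbers, although the groups overlapped through protrusion replicate 1. The means were 22.01 ± 4.91 in protrusions and 14.3 ± 3.72 in cell bodies (SD, n = 5 each), with a log2 change of 0.60 ± 0.23 (SE).

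The MAGT1 to TUSC3 ratio was 0.132 to 0.275 in protrusions and 0.521 to 1.94 in cell bodies, without overlap, a log2 difference of -2.20 ± 0.42 (SE, n = 5 each). MAGT1 exceeded TUSC3 in cell body replicate 2 and in no other library. The summed level of MAGT1 and TUSC3 was 26.0 ± 4.76 scaled TPM in protrusions and 26.2 ± 1.76 in cell bodies (SD, n = 5 each). The summed levels were thus nearly equal in the deposited scaling. Both this sum and the share of MAGT1 add up genes of unlike length, so they rest on the inferred unit. The sum depends on how libraries were scaled to each other and was not computed under other scalings. The share of MAGT1, which does not depend on it, was 15.9 ± 5.09% in protrusions and 45.6 ± 12.7% in cell bodies.

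**Figure D2:**
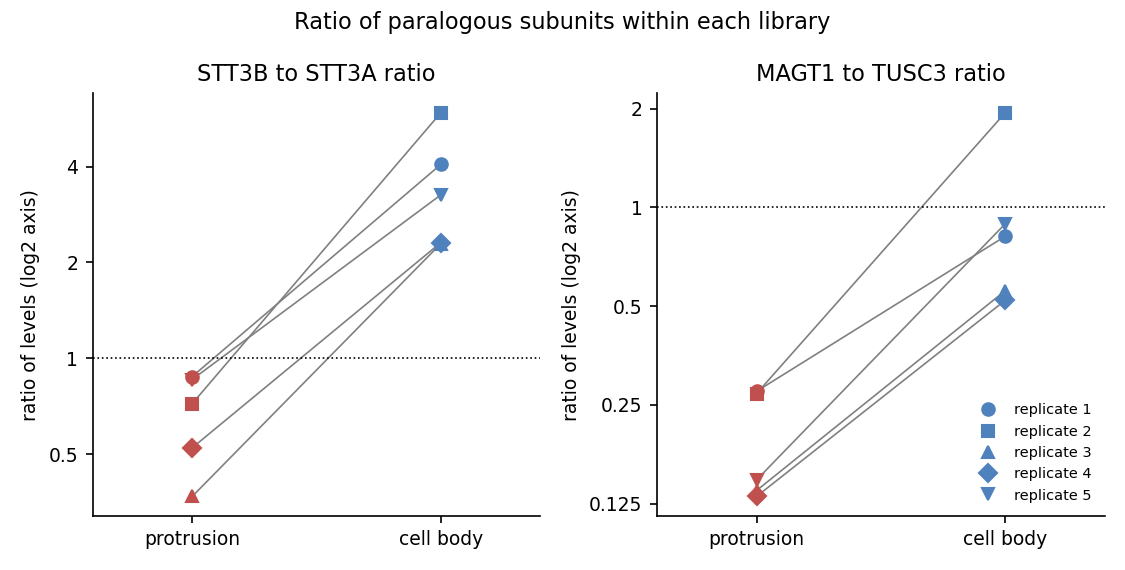
Ratio of the levels of STT3B to STT3A (left panel) and of MAGT1 to TUSC3 (right panel) in each library, on log2 axes, with protrusions left and cell bodies right in each panel; lines join libraries of the same replicate number and the dotted line marks equal levels. All 5 lines of each panel are lower at the protrusion end, and the STT3B to STT3A ratio is below 1 in all 5 protrusions and above 2 in all 5 cell bodies.

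OSTC, the tether of the STT3A form to the translocon, was measured at 114.8 to 151.6 scaled TPM in protrusions and 78.5 to 132 in cell bodies. Its mean was 131 ± 14.6 in protrusions and 108 ± 23.6 in cell bodies, with protrusions the higher at 5 of 5 replicate numbers and a log2 change of 0.29 ± 0.17 (SE). The STT3A to OSTC ratio overlapped widely between the groups, at 0.0494 to 0.108 in protrusions and 0.0449 to 0.1005 in cell bodies.

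Among the shared subunits, RPN1 and RPN2, the ribophorins, were slightly higher in protrusions at 5 of 5 replicate numbers, while their groups overlapped. RPN1 averaged 17.3 ± 5.97 scaled TPM in protrusions and 13.4 ± 4.66 in cell bodies, with a log2 change of 0.35 ± 0.30 (SE). Exons of RPN2 overlap MROH8, on the opposite strand, over 5.22% of their bases. RPN2 averaged 58.5 ± 6.99 in protrusions and 49.2 ± 3.86 in cell bodies, with a log2 change of 0.24 ± 0.15 (SE). DAD1, a small subunit first described as a defender against cell death, averaged 708 ± 107 in protrusions and 670 ± 99.4 in cell bodies (change 0.08 ± 0.15, log2 and SE). DDOST, a single-pass membrane subunit, was the only other subunit of the 9 with a negative change, at 67.9 ± 18.9 in protrusions and 80.8 ± 18.0 in cell bodies (change -0.27 ± 0.23, log2 and SE), and its change was 0.09 when all libraries were brought to an equal sum. Of its exon bases, 15.7% overlapped an antisense-named gene of PINK1 annotated on the same strand.

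Leaving out 1 library moved several of these small changes. For RPN1 the change was 0.15 without cell body replicate 2, 0.56 without protrusion replicate 2 and 0.21 without protrusion replicate 4. It was -0.092 for DDOST without protrusion replicate 2 and 0.19 for OSTC without cell body replicate 2. For DAD1 it ran from 0.0066 without protrusion replicate 2 to 0.15 without cell body replicate 1.

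Under the fit to all genes, 2 of the 9 subunits were past an adjusted p of 0.05 as lower in protrusions and 0 as higher, beside 21.5% and 4.28% of the 10894 genes tested. The 2 were STT3B and MAGT1, and they were also the only 2 whose groups did not overlap, beside 18.4% of the genes tested in the lower direction. No subunit lay wholly above, beside 3.46% of genes, and in either direction 21.8% of genes did not overlap and 25.8% passed the fit. With the replicate number as a block, OSTC and TUSC3 were past it as higher, beside 13.0% of genes, and the same 2 subunits as lower, beside 25.4%. Nothing is read from these counts, since the subunits were chosen with this contrast known. The median log2 change was 0.24 over the 9 subunits and -0.03 over all genes tested. Among the 9072 protein-coding genes tested the median was 0.02, and 430 were called higher and 1532 lower in protrusions.

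**Figure D3:**
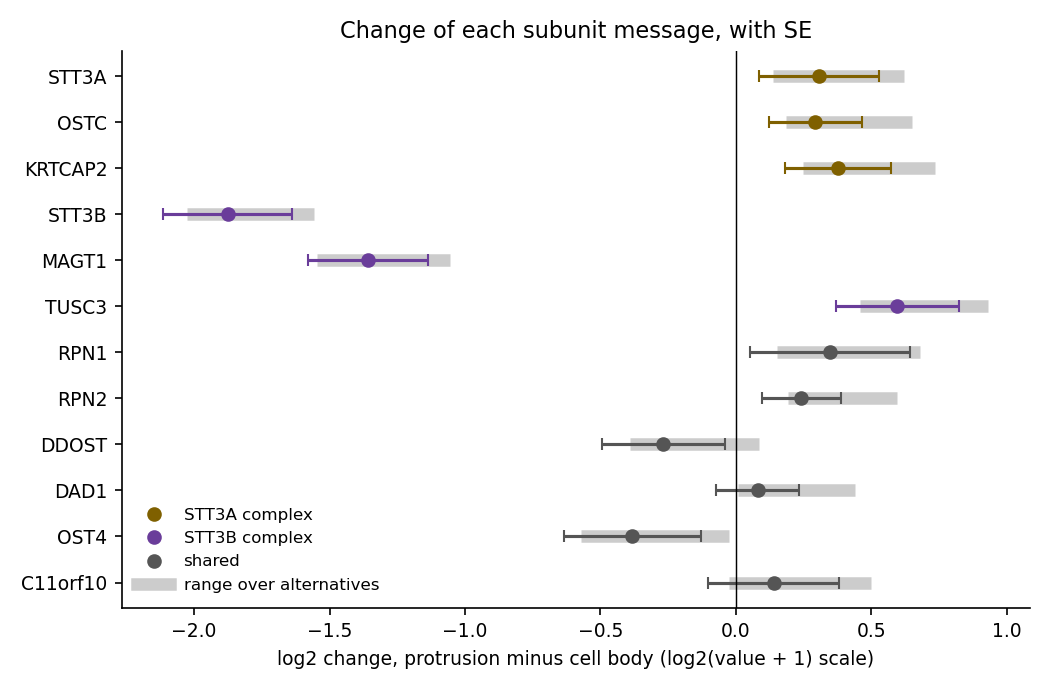
Log2 change in log2(value + 1), protrusion minus cell body (horizontal axis), of the 9 subunits and the other 3 known ones, grouped by colour into the STT3A form, the STT3B form and shared subunits; points are the fitted change, bars the SE and grey bands the range over all alternative settings. The bands of STT3B and MAGT1 lie below -1, and those of DDOST and C11orf10 cross 0.

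The order of levels, in scaled TPM and so per length if the inferred unit holds, differed between the compartments for the catalytic subunits. In protrusions the order of mean levels was DAD1, OSTC, DDOST, RPN2, TUSC3, RPN1, STT3A, STT3B and MAGT1. In cell bodies it was DAD1, OSTC, DDOST, RPN2, STT3B, TUSC3, RPN1, MAGT1 and STT3A, with STT3B in the fifth place and STT3A last. The ranges over 5 libraries did not separate DDOST from RPN2, TUSC3 from RPN1, RPN1 from STT3A, STT3A from STT3B, or STT3B from MAGT1 in protrusions, although STT3A was above STT3B, and STT3B above MAGT1, in each of the 5. In cell bodies they did not separate OSTC from DDOST, TUSC3 from RPN1, RPN1 from MAGT1, or MAGT1 from STT3A. DAD1 was above all other subunits of the 9 in every library of both groups.

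The libraries numbered 2 stood at an end of their group's range for many subunits. Among the 12 subunits, including OST4, C11orf10 and KRTCAP2, 5 were highest in replicate 2 of both groups (STT3B, MAGT1, OST4, C11orf10 and KRTCAP2) and 3 were lowest there in both (DDOST, OSTC and RPN1). STT3A and DAD1 were highest in replicate 2 of the protrusions alone and TUSC3 was lowest in replicate 2 of the cell bodies alone. STT3A lay 0.33 above its group mean in protrusion replicate 2 and at -0.35 from it in cell body replicate 2, in log2(value + 1). RPN1, for example, was 8.47 scaled TPM in protrusion replicate 2 and 15.9 to 24.2 in the other protrusions, and 6.98 in cell body replicate 2 and 10.97 to 18.97 in the other cell bodies. The libraries numbered 2 also had the largest sums of their groups. The part of this in the levels was not tested, and without both libraries the change was -1.89 for STT3B and 0.14 for STT3A, beside 0.31 for STT3A with them.

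**Figure D4:**
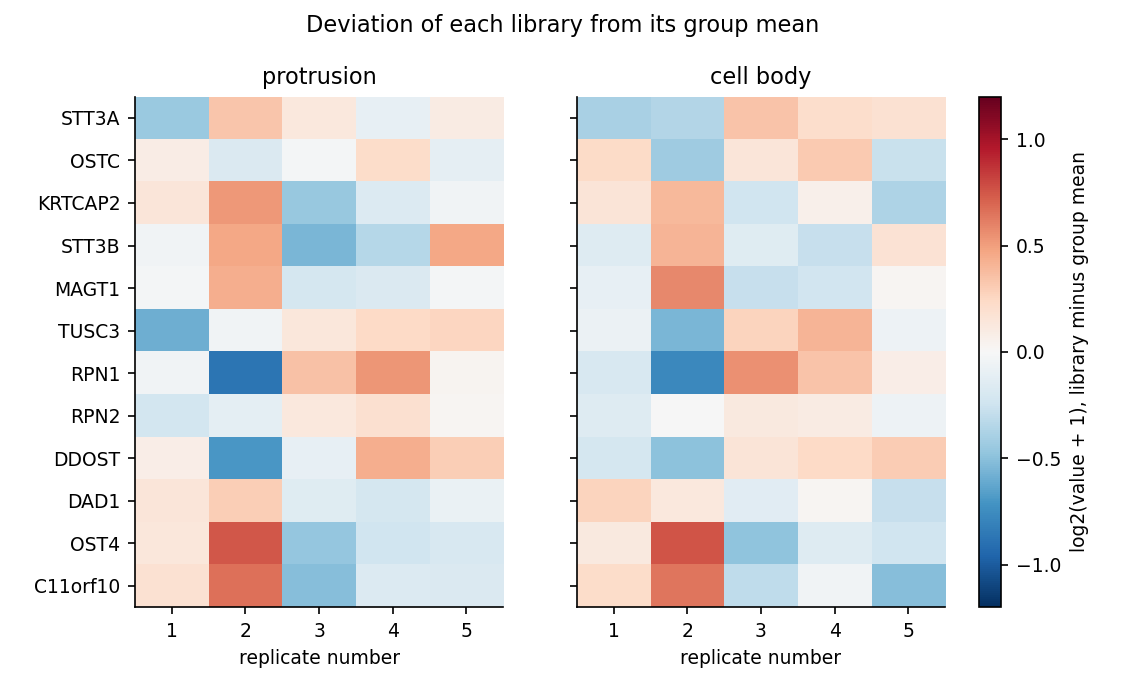
Deviation of each library from the mean of its own group, in log2(value + 1) (colour scale), for 12 subunits (rows) and replicate numbers 1 to 5 (columns), with protrusions in the left panel and cell bodies in the right. In the column of replicate 2, 5 subunits are highest (red) and 3 lowest (blue) of their group in both panels, while STT3A is red in protrusions and blue in cell bodies.

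STT3B and STT3A have messages of similar length. In GENCODE 29, taking the longest principal coding transcript of a gene, STT3B had 4248 bases with a 3′ UTR of 1561, and STT3A 4558 bases with a 3′ UTR of 2284. MAGT1 had 4047 bases with a 3′ UTR of 2859, against 1498 bases and a 3′ UTR of 306 in TUSC3. The other 5 of the 9 were between 731 and 2515 bases long. Across 8828 tested protein-coding genes with a length, 23.2% of the longest 2207 were called lower in protrusions and 8.65% of the shortest 2207. The part of length in the subunit levels was not tested.

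By the root mean square difference of centred log2 values over the 10 libraries, the 5 protein-coding genes closest to STT3B were GRK4, XIAP, NXN, ITGA3 and SMG1. Their differences were 0.175 to 0.212, and MAGT1 came 140th of 8964 genes at 0.335. GRK4, a G protein-coupled receptor kinase, averaged 2.23 ± 0.79 scaled TPM in protrusions and 11.8 ± 3.49 in cell bodies, and ITGA3, an integrin subunit, 7.48 ± 2.70 in protrusions and 28.0 ± 11.8 in cell bodies. Closest to STT3A were PDIA4, PRR14, MAGED2, ZC3H14 and LUC7L2, with differences of 0.126 to 0.158. PDIA4, a disulfide isomerase of the endoplasmic reticulum, averaged 5.40 ± 1.201 in protrusions and 3.96 ± 1.27 in cell bodies (SD, n = 5 each). Among the 9 subunits RPN2 was nearest to STT3A, in place 273 at 0.255.

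The remaining known subunits of the enzyme were not among the 9 and were tested. These subunits and the lists below were chosen with earlier results of these data known, which limits what their adjusted p-values can show. OST4, a very small shared subunit, averaged 1893 ± 687 scaled TPM in protrusions and 2470 ± 901 in cell bodies (change -0.38 ± 0.25, log2 and SE; limma adjusted p = 0.313). KRTCAP2, of the STT3A form, averaged 855 ± 221 in protrusions and 653 ± 138 in cell bodies (change 0.38 ± 0.20, adjusted p = 0.191). TMEM258, listed under its older symbol C11orf10, averaged 1104 ± 362 in protrusions and 1002 ± 325 in cell bodies (change 0.14 ± 0.24, adjusted p = 0.729), and its change was -0.027 without protrusion replicate 2. With the replicate block OST4 was lower in protrusions (limma adjusted p = 3.02e-04, lower at 5 of 5 numbers) and KRTCAP2 higher (adjusted p = 0.00643, higher at 5 of 5). Over all genes tested, 25.4% were lower and 13.0% higher with the block. The OST4 change was -0.23 with median-of-ratios scaling, -0.034 under quantile normalization and -0.025 with equal library sums (adjusted p = 0.520, 0.849 and 0.910), and -0.19 without cell body replicate 2 (adjusted p = 0.626). The KRTCAP2 change was 0.25 without protrusion replicate 2 (adjusted p = 0.335). KRTCAP2 also passed under the 3 other scalings (adjusted p = 0.0478, 0.0209 and 2.55e-04) and C11orf10 with equal library sums (adjusted p = 0.0204). Exons of OST4, C11orf10 and KRTCAP2 overlap other genes over 21.0%, 20.6% and 18.4% of their bases, so their levels are uncertain. The gene that overlaps KRTCAP2 is on the same strand, so counting by strand would not separate it. AGBL5, which overlaps OST4, and FEN1 and MYRF, which overlap C11orf10, are on the opposite strand. No source used here states whether counting used strand.

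The lipid-linked oligosaccharide that the enzyme transfers is built by a pathway of which 24 genes were listed and 21 tested. In protrusions 3 rose, 0 fell and 18 did not pass, beside 4.28% and 21.5% of all genes tested, and the median log2 change was 0.10. DPM2 and DPM3, the accessory subunits of dolichol-phosphate mannose synthase, both rose. DPM2 averaged 154 ± 16.9 scaled TPM in protrusions and 106 ± 10.7 in cell bodies (change 0.54 ± 0.14, log2 and SE; limma adjusted p = 0.0103). DPM3 averaged 317 ± 103 in protrusions and 197 ± 28.6 in cell bodies (change 0.64 ± 0.21, adjusted p = 0.0345). DPM1, the catalytic subunit of that synthase, named after its values were seen, averaged 113 ± 20.3 in protrusions and 133 ± 30.4 in cell bodies (change -0.23 ± 0.20, adjusted p = 0.459). ALG3, a mannosyltransferase of the pathway, averaged 64.9 ± 6.46 in protrusions and 41.2 ± 9.77 in cell bodies (change 0.67 ± 0.18, adjusted p = 0.0137). The DPM3 call was lost with no filter (adjusted p = 0.0669) and on leaving out any 1 of protrusion libraries 1, 2 and 5 and cell body libraries 3, 4 and 5 (0.0626 to 0.0874). With the block the same 3 rose and MPDU1, which helps use dolichol-linked sugars and is named after its values were seen, fell (adjusted p = 0.0317), at 52.9 ± 12.9 in protrusions and 73.3 ± 12.5 in cell bodies. Over all genes tested, 13.0% were higher and 25.4% lower with the block. Exons of DPM2 overlap an opposite-strand gene over 19.2% of their bases.

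After transfer the glycan is trimmed and read by lectin chaperones, for which 16 genes were listed and tested. In protrusions 0 rose, 1 fell and 15 did not pass, beside 4.28% higher and 21.5% lower among all genes tested, and the median log2 change was 0.05. UGGT1, the glucosyltransferase that marks incompletely folded glycoproteins for another round of chaperone binding, fell to 1.07, 1.82, 0.723, 1.28 and 0.992 scaled TPM in protrusion replicates 1 to 5, against 3.58, 6.55, 3.90, 4.14 and 7.07 in cell body replicates 1 to 5. The groups did not overlap, and the log2 change was -1.45 ± 0.23 (SE; limma adjusted p = 1.63e-04). UGGT1 was at 1 or more in 8 of 10 libraries, and its protrusion values were near the 1 added before the logarithm. Its change was -2.01 with 0.1 added instead and -1.02 under quantile normalization. The UGGT1 cell body mean was 4.29 times the protrusion mean. MLEC, malectin, the most abundant message of the list, averaged 81.7 ± 25.8 in protrusions and 65.5 ± 25.01 in cell bodies (change 0.33 ± 0.31, adjusted p = 0.487). With the replicate block CALR (0.81, adjusted p = 0.00136) and LMAN2 (0.58, adjusted p = 0.00111), a lectin chaperone and a cargo lectin named after their values were seen, rose as well, against adjusted p of 0.0826 and 0.241 without it. Over all genes tested, 13.0% were higher and 25.4% lower with the block. Of the UGGT1 exon bases, 0% overlap another gene, and its transcript of 10650 bases was longer than those of the 9 subunits.

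The translocon with which the STT3A form works was represented by 8 genes of SEC61 and of the translocon-associated TRAP complex. In protrusions 1 rose, 0 fell and 7 did not pass, beside the same 4.28% and 21.5% of all genes, and the median log2 change was 0.21. SSR4, a TRAP subunit, averaged 418 ± 85.7 scaled TPM in protrusions and 280.2 ± 33.9 in cell bodies (change 0.56 ± 0.16, log2 and SE; limma adjusted p = 0.0190), a call lost without protrusion replicate 1 (adjusted p = 0.0547) or cell body replicate 5 (adjusted p = 0.0536). SEC61G, the most abundant message of the list, averaged 902 ± 257 in protrusions and 1174 ± 298 in cell bodies (change -0.39 ± 0.21, adjusted p = 0.207). It fell with the block (adjusted p = 0.00191) and without protrusion replicate 2 (adjusted p = 0.0476). Its change was -0.24 with median-of-ratios scaling, -0.21 under quantile normalization and -0.030 with equal library sums (adjusted p = 0.407, 0.259 and 0.862), and -0.26 without cell body replicate 2 (adjusted p = 0.417). SSR2, another TRAP subunit, named after its values were seen, rose with the block (change 0.48, adjusted p = 0.00221). Over all genes tested, 13.0% were higher and 25.4% lower with the block.

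**Figure D5:**
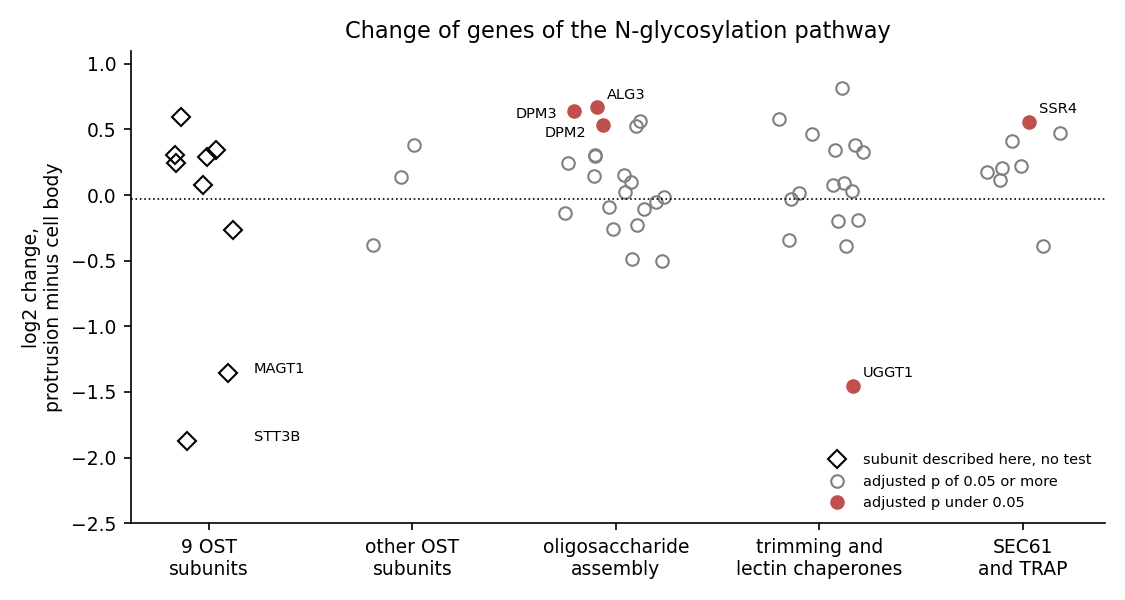
Log2 change, protrusion minus cell body (vertical axis), of each subunit and of each tested gene of 4 related lists (horizontal axis, with random sideways spread); diamonds are the 9 subunits, shown with no test, filled circles genes with a limma adjusted p under 0.05 and open circles the rest, and the dotted line is the median of all genes tested. UGGT1, at -1.45, is the only gene of the 4 lists below -1, where STT3B and MAGT1 also lie.

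Over all genes 466 were called higher and 2340 lower in protrusions, so 16.6% of calls were higher. That share was 33.8% with the replicate block. It was 44.9% with equal library sums, 57.2% under quantile normalization and 34.6% under median-of-ratios scaling. Those 3 scalings moved the median log2 change of all genes by 0.27, 0.30 and 0.11. Under them STT3B stood at -1.56, -1.66 and -1.74, MAGT1 at -1.06, -1.06 and -1.23, STT3A at 0.62, 0.60 and 0.44, and TUSC3 at 0.93, 0.76 and 0.74. The signs of these 4 subunits held in every setting run.

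In the authors' deposited table the log2 change runs as cell body relative to protrusion. It was 0.31 for STT3B (p = 0.377, false discovery rate 0.896) and 0.62 for MAGT1 (p = 0.124, false discovery rate 0.740) in the authors' deposited table. The deposited group means give 1.99 and 1.58. For DDOST the authors' deposited table had 0.26 and the means give 0.25, and for TUSC3 it had -0.47 and the means give -0.62. The fit used here called 25.8% of the genes tested, while 0.0184% of them had an authors' false discovery rate under 0.05. Among the genes tested, 13.7% had a log2 change in the authors' deposited table that was more than 1 away from the log2 ratio of the deposited group means. The libraries and test behind that comparison are stated in no source used here.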

How the data were processed

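RNA-seq values of 10 libraries were used. Per the submitters' processing notes, cutadapt 1.10, FastQC 0.10.1, HISAT2 and StringTie 1.3 were used; no source used here gives their roles, the genome build, the annotation or the strand setting. The authors deposited 1 expression signal per gene and library, in an unnamed unit. In each library 100% of values below 2 were whole multiples of 1 step (tolerance 0.00051), as TPM with 2 decimals times a factor of 0.737 to 1.39 would be, so read depth is unknown and no counting error is given. The deposited table also holds the authors' log2 fold change and mean abundance, their p-value and false discovery rate, per the file headers.

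From the values, log2(value + 1) of 10894 genes at 1 or more in at least 5 libraries was fitted with limma 3.58.1 (R 4.3.3, mean-variance trend), with Benjamini-Hochberg adjustment over these genes and a threshold of 0.05. The fit was tested on simulated data with known changes and independent noise in each library. That tests only the working of the fit, since same-numbered libraries here deviated together. Python 3.11.15, pandas 2.3.3, scipy 1.17.1, Biopython 1.88 and matplotlib 3.10.9 did the rest. Transcripts came from GENCODE 29.

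The series describes the bodies as corresponding, and same-numbered libraries deviated together from their group means (correlations 0.236 to 0.577 across genes), so the numbers were taken as pairs; the main fit has no block and the blocked values stand beside results they change. The subunits and gene lists were chosen with earlier results of these data known. Named genes were the subunits, up to 4 genes per list with the smallest p and its most abundant gene, the 5 nearest patterns to STT3B and STT3A, and MALAT1, NEAT1 and RAB13. Alternatives were another pseudocount (0.1), no filter, 3 scalings, the block, and leaving out libraries. One listed marker gene is not reported here.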

Additional observations from a re-analysis of the deposited data

Results flagged for a closer look

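In 28 groups of 5 values examined, those of 12 subunits and 2 ratios in each compartment, 3 held a library far from the others, where chance flags about 5% of groups. MAGT1 was 5.65 scaled TPM in protrusion replicate 2, against 3.25 to 3.85 in the other protrusions, and 17.9 in cell body replicate 2, against 9.43 to 11.9 in the other cell bodies. The MAGT1 to TUSC3 ratio was 1.94 in cell body replicate 2, against 0.521 to 0.891 in the other cell bodies, a value that contains the same MAGT1 measurement.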

How the results depend on the processing

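The log2 change of STT3B ranged from -2.03 to -1.56 over 17 alternatives. The STT3B to STT3A log2 ratio difference ranged from -2.53 to -2.18 over 13. With each replicate number in both groups, the replicate block cannot change either value, and the ratio difference stayed at -2.39. Dropping the filter likewise cannot change the value of STT3B, so these settings tell nothing about its stability. For MAGT1 the change was -1.06 after quantile normalization and -1.06 with equal library sums. Equal sums gave 0.59 for RPN2, 0.44 for DAD1 and 0.65 for OSTC, and median-of-ratios scaling 0.39 for RPN2. Of the 10894 genes tested, 466 were higher in protrusions in the main fit. The count was 1132 with median-of-ratios scaling, 2380 after quantile normalization, 1412 with the replicate block and 1533 with equal sums. It was 503 without both libraries numbered 2, and 257 to 649 with 1 library left out, the lowest without cell body replicate 5. Genes lower numbered 2340 in the main fit, 2769 with the block and 2136 to 2576 with 1 library left out. With no filter 3975 genes were lower, out of a larger set, every gene above 0 in any library. That count is therefore not on the same base as those over 10894 genes. The 4 lists held 3, 21, 16 and 8 tested genes, and their counts are to be read beside those over all genes under the same setting. Of the other subunits, 1, 1, 1 and 2 were higher with median-of-ratios scaling, quantile normalization, the block and equal sums, and 1 was lower with the block. In oligosaccharide assembly 7 were higher after quantile normalization, and 1 was lower with the block and 0 to 1 with 1 library left out (1 without protrusion replicate 3 or 5). In trimming and chaperones 1, 4, 2 and 2 were higher under the same 4 settings, 2 without both libraries numbered 2 and 0 to 1 with 1 library left out (1 without either of them). In SEC61 and TRAP 3, 4, 2 and 5 were higher under those 4 settings, 2 without both libraries numbered 2 and 0 to 2 with 1 left out (0 without protrusion replicate 1 or cell body replicate 5, 2 without protrusion replicate 2 or cell body replicate 4), and 1 was lower with the block and 0 to 1 with 1 left out (1 without protrusion replicate 2). With 1 library left out, C11orf10 ranged from -0.027 without protrusion replicate 2 to 0.30 without cell body replicate 2, and with equal sums it was 0.50. Summing over identifiers could not be tried, since each subunit has 1. The cause of these shifts was not tested. The unknown depth limits what can be said of low values.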

Other observations

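Protrusion replicate 3 held 1 gene with a value above 0 in no other library, where the other 9 libraries held 94 to 618 such genes each.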
